A study of Homo sapiens with 6 samples.

Results

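The genes described are 10 regulators that set the balance between epithelial and mesenchymal identity. They are the zinc finger repressors SNAI1 and SNAI2, the zinc finger and homeodomain repressors ZEB1 and ZEB2, the basic helix-loop-helix factors TWIST1 and TWIST2, the homeodomain factor PRRX1, the epithelial transcription factors GRHL2 and OVOL1, and the epithelial splicing factor ESRP1. They were chosen by name from the 58825 genes in the expression table, and all 10 were present in it. SNAI1, SNAI2, ZEB1, ZEB2, TWIST1 and ESRP1 were detected and tested among 19510 genes, whereas TWIST2, PRRX1, GRHL2 and OVOL1 were not detected above the limit of these libraries.

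Epithelial-mesenchymal transition is a program in which epithelial cells loosen their junctions and take on migratory and matrix-producing features, and in the renal tubule it has been studied in connection with fibrosis. SNAI, ZEB and TWIST factors bind E-box elements and repress junction genes such as CDH1, which encodes E-cadherin. GRHL2 and OVOL1 restrain that program, ESRP1 maintains epithelial exon choice, and the miR-200 family silences ZEB1 and ZEB2, which in turn repress the miR-200 genes.

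The cells were HK-2, an immortalized line derived from human proximal tubule. In the Control group 3 cultures received no treatment, and in the OX-LDL group 3 cultures received oxidized low-density lipoprotein, the lipoprotein form taken up by scavenger receptors, at 25 µg/ml for 48 h, so there were 3 libraries per group. All cultures were of the same single line, all were serum-starved before treatment, and the labels name no vehicle or native lipoprotein for the untreated cultures. The libraries were RNA-seq of polyadenylated RNA, with 62561347 to 76797607 estimated counts each, in which about 4 counts stood for 1 read pair. Levels are given as FPKM, fragments scaled to transcript length and to library size, so that levels of different genes can be compared. Differences were tested with edgeR, and a gene was called changed when its p-value, adjusted over all 19510 genes by the Benjamini-Hochberg method, was under 0.05. Such p-values measure the spread between these cultures of 1 line, and with bulk RNA fewer cells carrying a transcript and less transcript per cell cannot be told apart.

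Among the members examined, the 2 with the most matches to the miR-200 seeds were ZEB1 and ZEB2, so these sequences are shown first. The family has seeds of 2 kinds, which differ by a single base. The mature forms from RefSeq (GRCh38.p14), with seed bases 2 to 8 in capitals, are those of chr12:6963742-6963764 and chr12:6964155-6964176, both on the plus strand.
hsa-miR-200c-3p: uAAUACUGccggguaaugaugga
hsa-miR-141-3p: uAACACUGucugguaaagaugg
The reverse complement of the first seed is CAGTATT and that of the second is CAGTGTT. In the longest protein-coding transcript of each gene (GENCODE 29), ZEB1 held 6 copies of the first and 7 of the second in 6267 bases, and ZEB2 also held 6 and 7, in 9583 bases. Of the 13 matches in each gene, 9 lay after the stop codon. At least 1 match of either kind was present in 40.7% of 19669 protein-coding genes, and 13 or more in 3 of them, TTN, ZEB1 and ZEB2. The transcripts of SNAI1, TWIST1, TWIST2, PRRX1 and OVOL1 held none. The first match of each kind after the stop codon is shown in capitals with the 20 bases before it, at chr10:31527613-31527639 and chr10:31528026-31528052 on the plus strand for ZEB1, and at chr2:144389053-144389079 and chr2:144389237-144389263 on the minus strand for ZEB2.
ZEB1, first seed: ctggcattgttttatcttatCAGTATT
ZEB1, second seed: gacagcaaaatcatcagaatCAGTGTT
ZEB2, first seed: gtgcccgcactaccatacatCAGTATT
ZEB2, second seed: cattatgcaaaaattttgtaCAGTGTT
A match is a description of the letters and not a measured site. Mature miRNAs were not measured by these libraries, and MIR200CHG, the host transcript of miR-200c and miR-141, had 0 counts in all 6 of them.

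The E-box bound by SNAI and ZEB factors was also located, as CAGGTG or its reverse complement CACCTG, in promoter windows of 300 bases from RefSeq (GRCh38.p14). At least 1 copy was present in 20.6% of all 35116 windows. In the windows examined here for ZEB1, ZEB2, TWIST2 and PRRX1, 2 of 10 held a copy, and both belonged to ZEB1. For 20 genes listed as epithelial targets of these repressors, a list that was drawn up from known targets, windows were found for 11. Of the 16 windows of these 11 genes, 12 held the E-box, and they belonged to 10 genes. Windows of 1 gene can overlap, as those of MUC1 did, so the windows are not independent. The window with the most copies for ZEB1, with 3, was at chr10:31318966-31319265 on the plus strand, and that of CRB3, which encodes an apical polarity protein, held 5 at chr19:6464021-6464320 on the plus strand. Both are shown with the E-boxes in capitals, as a regulator and a target whose levels are given in the paragraphs on each.
ZEB1 promoter window: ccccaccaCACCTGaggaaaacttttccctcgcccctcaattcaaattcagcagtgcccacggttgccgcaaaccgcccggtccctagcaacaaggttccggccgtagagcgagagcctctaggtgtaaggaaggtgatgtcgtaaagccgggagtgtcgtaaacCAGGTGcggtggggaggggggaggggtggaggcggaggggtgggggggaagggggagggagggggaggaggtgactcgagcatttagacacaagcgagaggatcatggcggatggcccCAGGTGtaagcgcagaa
CRB3 promoter window: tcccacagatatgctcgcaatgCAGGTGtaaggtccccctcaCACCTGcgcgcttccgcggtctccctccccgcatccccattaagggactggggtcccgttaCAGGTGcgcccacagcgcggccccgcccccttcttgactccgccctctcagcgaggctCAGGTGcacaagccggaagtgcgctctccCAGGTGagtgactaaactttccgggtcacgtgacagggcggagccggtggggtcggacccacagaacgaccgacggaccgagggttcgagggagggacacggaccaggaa

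The 6 detected regulators had means between 0.64 and 3.78 FPKM. In the Control libraries ZEB1 was the highest, at 3.48 ± 0.439 FPKM (SD, n = 3), above SNAI1 at 2.39 ± 0.626 FPKM with no overlap of the libraries. TWIST1 stood at 2.06 ± 0.143 FPKM and could not be separated from SNAI1, since SNAI1 was above TWIST1 in 2 of 3 libraries. ZEB2, ESRP1 and SNAI2 followed at 1.27 ± 0.0787, 1.26 ± 0.115 and 1.02 ± 0.132 FPKM, and neighbors in that order overlapped. In the OX-LDL libraries SNAI1, at 3.78 ± 0.0821 FPKM, was above ZEB1, at 2.84 ± 0.171 FPKM, in 3 of 3 libraries with no overlap. Neither gene was called changed between the groups by edgeR with all libraries. The lowest 3 were ZEB2, ESRP1 and SNAI2 in both groups, and again neighbors overlapped. Over all libraries, the share of tested genes with a lower mean FPKM ran from 34.5% for SNAI2 to 56.6% for ZEB1.

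**Figure D1:**
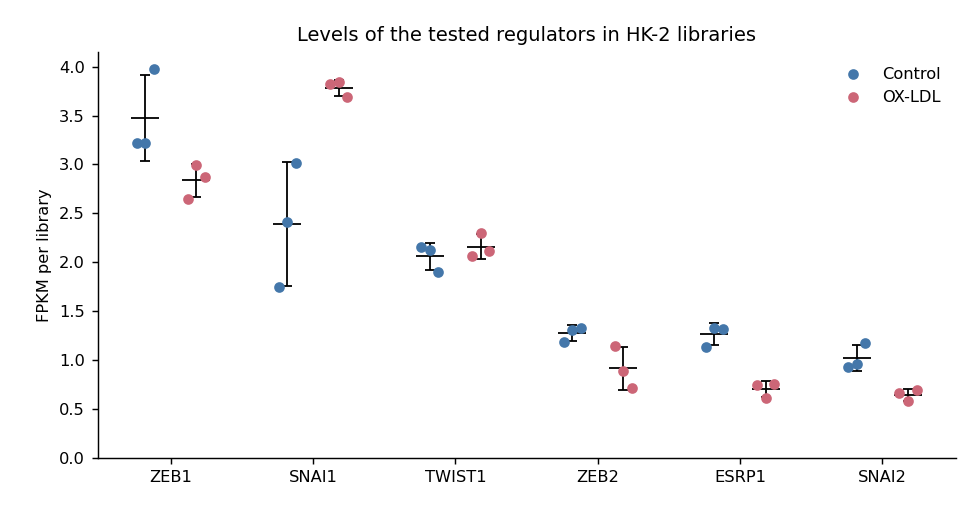
FPKM of the 6 detected regulators in each library (points, 3 Control in blue and 3 OX-LDL in red), with the mean and SD in black. SNAI1 lay higher in the OX-LDL libraries (3.69 to 3.84 FPKM) than in Control (1.75 to 3.01 FPKM), ESRP1, SNAI2, ZEB1 and ZEB2 lay lower without overlap, and TWIST1 overlapped.

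SNAI1, which encodes Snail and is among the early regulators of the transition, lies on chromosome 20 at 49982980 to 49988886 on the plus strand of GRCh38 (ENSG00000124216). Its level was 1.75, 2.41 and 3.01 FPKM in the 3 Control libraries and 3.82, 3.84 and 3.69 FPKM in the 3 OX-LDL libraries. All 3 OX-LDL libraries were above the highest Control library, and the Control libraries were the more spread. The log2 fold change was 0.70 (SE 0.21), a fold of 1.62, with an unadjusted edgeR p of 0.0141 and an adjusted p of 0.0736, so it was not called. DESeq2 gave the same fold change with an adjusted p of 0.0129, and edgeR without Control replicate 3, the Control library with the highest SNAI1, gave a log2 fold change of 0.90 with an adjusted p of 0.0455. The other 13 of 15 alternatives did not call SNAI1, and among these edgeR without Control replicate 1 gave a log2 fold change of 0.52 and an adjusted p of 0.139. These levels rested on 66 to 149 read pairs per library, where counting error alone is 12.3% to 8.2%. Among 108 tested genes of the related lists, HMGA2 and SPARC had the pattern over 6 libraries most like that of SNAI1. Their root mean square differences were 0.17 and 0.19 on the log2 scale, after scaling to library size and centering each gene. SNAI1 itself had a root mean square of 0.42 around its mean on that scale.

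SNAI2, which encodes Slug, showed the opposite order. It lies on chromosome 8 at 48917598 to 48921740 on the minus strand (ENSG00000019549). Its level was 0.924, 0.96 and 1.17 FPKM in Control and 0.657, 0.575 and 0.688 FPKM with OX-LDL. Every OX-LDL library was below every Control library. The log2 fold change was -0.64 (SE 0.19), with an unadjusted edgeR p of 0.0132 and an adjusted p of 0.0709, which missed the threshold. DESeq2 gave an adjusted p of 0.018, whereas the other 13 alternatives did not call SNAI2, with adjusted p from 0.116 to 0.176 when a library was left out of edgeR. Between 42 and 81 read pairs per library supported these levels, with a counting error of 15.5% to 11.1%.

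The relative abundance of both SNAI paralogs does not depend on how libraries are scaled to each other. SNAI1 made up 65.5%, 71.5% and 72% of the summed SNAI1 and SNAI2 FPKM in Control, and 85.3%, 87% and 84.3% with OX-LDL. The mean share was 69.7% ± 3.63 in Control and 85.5% ± 1.36 with OX-LDL (SD, n = 3 each), with no overlap. The two-sided exact permutation test gave p = 0.1 for this share, the smallest that 3 libraries against 3 allow, and 0.15 after Benjamini-Hochberg adjustment over the 3 paralog shares tested. The share of ZEB1 in the sum of ZEB1 and ZEB2 overlapped between groups, at 73.1% ± 1.94 and 75.8% ± 5.23 (exact permutation p = 0.5). SNAI3, the remaining SNAI paralog, was at 0.158 FPKM or less in every library and was not tested.

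**Figure D2:**
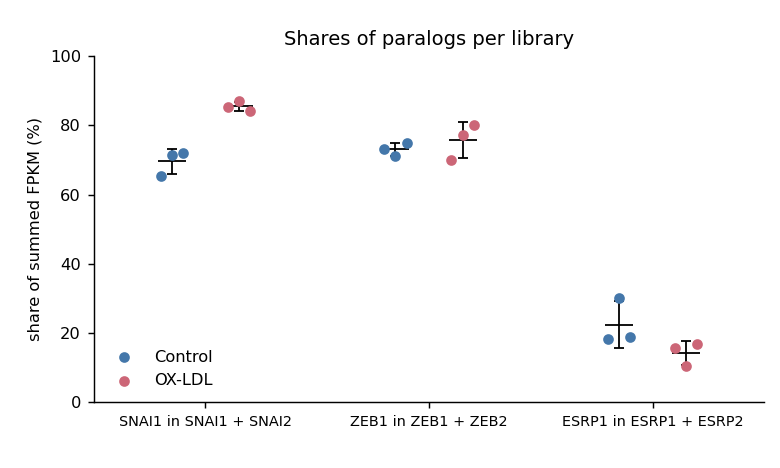
Share, in percent, that 1 paralog takes of the summed FPKM of a pair, in each of the 3 Control (blue) and 3 OX-LDL (red) libraries, with the mean and SD in black. The SNAI1 share ran from 65.5% to 72% in Control and from 84.3% to 87% with OX-LDL, the ZEB1 shares overlapped, and the ESRP1 share was lower with OX-LDL.

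ZEB1 lies on chromosome 10 at 31318495 to 31529813 on the plus strand (ENSG00000148516) and encodes a repressor of CDH1 and of the miR-200 genes. It was measured at 3.22, 3.22 and 3.98 FPKM in Control and at 2.65, 2.99 and 2.87 FPKM with OX-LDL. The groups did not overlap, although the closest libraries were 2.99 and 3.22 FPKM. The log2 fold change was -0.26 (SE 0.12, unadjusted edgeR p of 0.0618, adjusted p of 0.188), which did not pass the test. ZEB1 had 425 to 702 read pairs per library, with a counting error of 4.85% to 3.77%. Its exons overlap ZEB1-AS1, an antisense transcript at a mean of 0.609 FPKM with a log2 fold change of -0.22 (adjusted p of 0.653), and an intron holds the pseudogene SPTLC1P1 on the same strand. Whether the counting used strand is not given in the sources used here, so reads of ZEB1 and ZEB1-AS1 may not be fully separated. The patterns nearest to ZEB1 in the lists were those of QKI and FN1, at root mean square differences of 0.11 and 0.12. ZEB1 itself had a root mean square of only 0.17 around its mean, so these patterns matched it loosely.

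ZEB2, on chromosome 2 at 144364364 to 144524583 on the minus strand (ENSG00000169554), encodes the second ZEB repressor. It stood at 1.18, 1.31 and 1.33 FPKM in Control and at 1.14, 0.887 and 0.71 FPKM with OX-LDL. The lowest Control and the highest OX-LDL library differed by little, and OX-LDL replicate 3 was the lowest. The log2 fold change was -0.45 (SE 0.17), with an unadjusted edgeR p of 0.0318 and an adjusted p of 0.124, so ZEB2 was not called. Its antisense neighbor ZEB2-AS1 had at most 16 counts in any library, against 1619 or more for ZEB2. FOXA1 and SIRT1 had the nearest patterns, at 0.16 and 0.20, beside a root mean square of 0.31 for ZEB2 around its own mean.

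TWIST1 was the member with the least difference between groups. It lies on chromosome 7 at 19020991 to 19117118 on the minus strand in the table (ENSG00000122691). Its level was 2.16, 2.12 and 1.9 FPKM in Control and 2.06, 2.3 and 2.11 FPKM with OX-LDL, and the groups overlapped. The log2 fold change was 0.10 (SE 0.15), with an adjusted edgeR p of 0.729. An antisense gene with overlapping exons, AC003986, had at most 34 counts, compared with 304 or more for TWIST1. TCF4, which encodes an E protein that pairs with TWIST factors, and ITGA5 had the nearest patterns, at 0.07 and 0.08. Like TWIST1 they varied little, and TWIST1 had a root mean square of 0.09 around its own mean.

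ESRP1, the epithelial splicing regulator, was the 1 member called, and it was lower with OX-LDL. It lies on chromosome 8 (ENSG00000104413). Its level was 1.13, 1.33 and 1.32 FPKM in Control and 0.743, 0.61 and 0.758 FPKM with OX-LDL. The highest OX-LDL library was below the lowest Control library. The log2 fold change was -0.80 (SE 0.17), a fold of 0.573, with an adjusted edgeR p of 0.0224. Its call held without Control replicate 1 (adjusted p of 0.0472) and without OX-LDL replicate 2 (0.0401), but not in edgeR without Control replicate 2 (0.0819) or 3 (0.0622), nor without OX-LDL replicate 1 (0.0681) or 3 (0.0632), with log2 fold changes from -0.87 to -0.71 in these fits. DESeq2 gave an adjusted p of 0.000168.

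ESRP2, the paralog that shares the exon targets of ESRP1, was the more abundant of the pair, at 4.57 ± 1.33 FPKM in Control and 4.34 ± 0.794 FPKM with OX-LDL (SD, n = 3 each). Its log2 fold change of -0.04 (SE 0.24, adjusted edgeR p of 0.93) had no stable sign, since it was positive when replicate 1 or 3 of either group was dropped. Control replicate 2 held the lowest ESRP2, at 3.08 FPKM. ESRP1 made up 18.3%, 30.2% and 19% of the summed ESRP1 and ESRP2 FPKM in Control and 15.6%, 10.4% and 16.8% with OX-LDL, so the closest libraries of the groups differed by less than the SD of either group (exact permutation p = 0.1, again the smallest possible).

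The remaining 4 members did not exceed 12 counts, or 3 read pairs, in any library. TWIST2, PRRX1 and OVOL1 had 0 counts in all 6 libraries, which allows up to 0.156 to 0.192 CPM (counts scaled to library size, the limit being 12 counts in each library), for counting error only. For GRHL2 the Control libraries held 0, 0 and 8 counts, and those with OX-LDL held 8, 4 and 0. No difference could be measured for them at this depth. Their paralogs PRRX2, GRHL3, OVOL2 and OVOL3 were also too low to be tested. GRHL1 was the 1 grainyhead factor tested, at 0.735 ± 0.047 FPKM in Control and 0.581 ± 0.0799 FPKM with OX-LDL, with a log2 fold change of -0.30 (adjusted edgeR p of 0.273). Within the grainyhead and OVOL families alone, GRHL1 was high enough to be tested and GRHL2, GRHL3, OVOL1, OVOL2 and OVOL3 were not.

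Over the 6 tested members, 1 was called, against 15.3% of the 19510 tested genes, and 1 was called lower, against 7.42%. A single call among 6 genes is near these shares and is no result about the group. An unadjusted edgeR p under 0.05 was reached by 4 of the 6, against 30.4% of all tested genes, and 5 of the 6 had libraries that did not overlap between groups, against 37.2%. Every one of the 6 passed the minimum level of 0.1 FPKM in each group on its own. Their median log2 fold change was -0.35, beside -0.004 over all tested genes, and 4 were negative and 2 positive. Under DESeq2 3 members were called (SNAI1, SNAI2 and ESRP1), but the share of all genes called was also higher there, at 26.4% of the 16805 genes given an adjusted p.

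**Figure D3:**
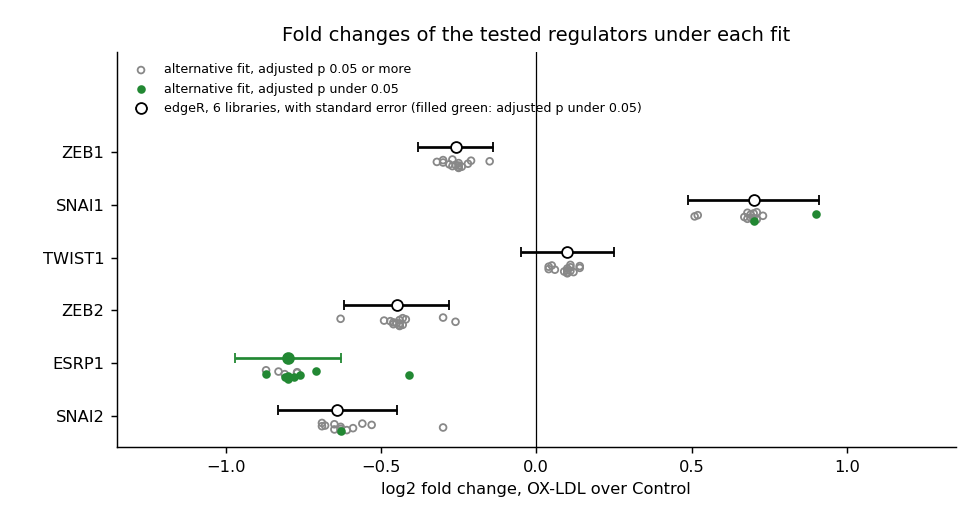
Log2 fold change of OX-LDL over Control for the 6 tested regulators, as the edgeR estimate from 6 libraries with its standard error (large circles) and under each alternative fit (small circles, green where the adjusted p was under 0.05). ESRP1 lay at -0.80 and was called, SNAI1 at 0.70 and SNAI2 at -0.64 were called by DESeq2 and not by edgeR with 6 libraries, and no member changed sign under any fit.

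The genes around these regulators were then described from 9 lists of related factors, cofactors and targets. These lists were chosen with earlier results of these data known, so their share of calls is not independent of that choice. Together 108 of the 133 listed genes were tested and 31 were called, 19 higher and 12 lower with OX-LDL, beside 15.3% of all tested genes called, 7.91% higher and 7.42% lower. Leaving out single libraries changed that number to 14, 9 and 23 without Control replicates 1, 2 and 3. It was 9, 26 and 8 without OX-LDL replicates 1, 2 and 3. Calls over all tested genes also fell in these fits. From 2991 they went to 1796, 1161 and 1993 without Control replicates 1, 2 and 3. Without OX-LDL replicates 1, 2 and 3 they were 1262, 2943 and 1163. ID1, ID3, KLF4, KLF5, AJUBA, VIM, SPARC and LOX were called in every one of the 6 fits that left out a library, and the other called genes named here for these lists lost the call in at least 1 such fit where they were refitted. Genes beyond the 4 with the smallest p in a list (ID2, ID4, FOXC1, KDM1A, SUZ12, SMARCA4, TAGLN, CRB3, EPCAM, FN1 and CDH1) were named after their values were seen and were not refitted one by one.

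Of 15 tested mesenchymal transcription factor relatives, 6 were called, 5 higher and 1 lower, and the list median log2 fold change was 0.31. Of the 4 ID genes, whose proteins lack a DNA-binding region and sequester the E protein partners of TWIST factors, 3 were called higher. ID1 rose from 23.4 ± 5.32 to 63.4 ± 3.38 FPKM (log2 fold change 1.46, SE 0.17, adjusted edgeR p of 0.00423). ID3 rose from 13.9 ± 3.52 to 35.4 ± 3.42 FPKM (log2 fold change 1.38), and ID2 from 25 ± 5.92 to 40.7 ± 0.422 FPKM (log2 fold change 0.73). ID4 was low and overlapped between groups, at 0.13 ± 0.0126 and 0.149 ± 0.0298 FPKM (log2 fold change 0.23, adjusted p of 0.69). HMGA2, an architectural chromatin protein that activates SNAI1 transcription, rose from 8.56 ± 1.5 to 13.2 ± 0.281 FPKM, and FOXC1 rose by a log2 fold change of 0.60. SOX9 fell from 0.754 ± 0.217 to 0.205 ± 0.0756 FPKM (log2 fold change -1.84, SE 0.36). The SOX9 call was lost once OX-LDL replicate 1 or 3 or Control replicate 2 was dropped, and that of HMGA2 also when Control replicate 1 was dropped. The list then held 2 calls in each of the first 3 fits and 3 calls in the last.

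Of 9 tested epithelial transcription factor relatives, 2 were called, both lower, with a list median of -0.55. KLF4, a zinc finger factor of differentiated epithelia that activates CDH1, stood at 3.51, 4.35 and 3.06 FPKM in Control and 0.502, 0.708 and 0.734 FPKM with OX-LDL. These libraries did not come near each other, and the log2 fold change was -2.44 (SE 0.22, adjusted edgeR p of 0.00185). KLF5 fell from 19.5 ± 2.42 to 11.6 ± 1.1 FPKM (log2 fold change -0.71). GATA3 (log2 fold change -1.44, adjusted p of 0.0533) was below Control in all 3 libraries but was not called by edgeR. DESeq2 called 5 genes of this list, but it also called more genes everywhere. It called 26.4% of the 16805 genes given an adjusted p, against 15.3% of all tested genes in edgeR.

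Of 6 tested kidney epithelial transcription factors, 2 were called, with a list median of -0.14. PAX8, a paired-box factor retained by tubule cells, fell from 46.6 ± 12.9 to 19.4 ± 4.17 FPKM (log2 fold change -1.23, SE 0.24, adjusted edgeR p of 0.0182). PAX2 (0.5 ± 0.182 and 0.244 ± 0.0222 FPKM, adjusted p of 0.0781) and HNF4G (-0.42, adjusted p of 0.21) were not called. No gene of this list was called once OX-LDL replicate 1 or 3, or Control replicate 1 or 2, was dropped.

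Corepressors and cofactors carry out the repression by SNAI and ZEB factors, and all 16 listed were tested. Of these 7 were called, 3 higher and 4 lower, and the median was -0.05. AJUBA, a LIM protein that bridges SNAI1 to chromatin enzymes, fell from 37.4 ± 1.98 to 25.2 ± 0.683 FPKM (log2 fold change -0.54, SE 0.07, adjusted edgeR p of 0.00601), whereas the related LIMD1 rose from 1.94 ± 0.109 to 2.62 ± 0.247 FPKM (0.47). SIRT1, a deacetylase, fell by 0.41 on the log2 scale and EP300, an acetyltransferase, fell by 0.31. SUZ12 of Polycomb repressive complexes was lower (-0.38), while the demethylase KDM1A (0.43) and the remodeler SMARCA4 (0.27) were higher. The number called was 3, 1 and 5 without Control replicates 1, 2 and 3. It was 2, 7 and 1 without OX-LDL replicates 1, 2 and 3.

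Snail protein is short-lived, and 16 genes of its turnover and localization were tested as transcripts. The calls were 3, 1 higher and 2 lower, with a median of -0.02. GSK3B, the kinase that marks Snail for degradation, fell from 20.6 ± 0.708 to 15.8 ± 1.1 FPKM (log2 fold change -0.35, adjusted edgeR p of 0.0264). LOXL2, a lysyl oxidase-like enzyme that binds Snail, fell from 101 ± 7.11 to 74.7 ± 2.68 FPKM (-0.40), and COPS2, a subunit of the COP9 signalosome, rose from 10.3 ± 0.413 to 13.4 ± 0.766 FPKM (0.41). PRKD1 was at -0.58 with an adjusted p of 0.0576. Dropping OX-LDL replicate 1 or 3, or Control replicate 2, left no call in this list.

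All 12 other splicing regulators listed beside ESRP1 were tested, and 4 were called, 2 in each direction (median -0.03). QKI, which promotes mesenchymal exon choice, fell from 4.31 ± 0.126 to 3.43 ± 0.113 FPKM (log2 fold change -0.30, SE 0.07, adjusted edgeR p of 0.0304). SRSF1 fell by 0.30 on the log2 scale, from 21 ± 1.99 to 16.6 ± 0.481 FPKM. PTBP2 (0.39) and HNRNPM (0.36) rose. The number called was 0 or 1 in each fit that left out a library, and exon choice itself was not measured in gene-level values.

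Among 19 tested epithelial targets, 2 were called, both higher, with a median of 0.08. MUC1, an apical mucin, rose from 0.792 ± 0.116 to 2.01 ± 0.7 FPKM (log2 fold change 1.37, SE 0.28, adjusted edgeR p of 0.0219), and PKP3, a desmosomal plaque protein, from 0.305 ± 0.0384 to 0.568 ± 0.0707 FPKM (0.92). Both were called when OX-LDL replicate 2 was dropped, and neither in the other 5 fits that left out a library. TJP3 (-1.33, adjusted p of 0.0827) and PRSS8 (-0.38, adjusted p of 0.0932) were not called by edgeR with 6 libraries. Of 15 alternative fits, 3 called TJP3 and 2 called PRSS8, both as lower. MUC1 was called in 9 of 15 and PKP3 in 5 of 14, both as higher. CDH1 was barely present, at 0.0276, 0.119 and 0.144 FPKM in Control and 0.134, 0.0602 and 0.124 FPKM with OX-LDL. These CDH1 levels overlapped fully, and the log2 fold change of 0.17 (SE 0.63) had an adjusted edgeR p of 0.89. EPCAM was abundant, at 51.2 ± 3.68 and 53.1 ± 3.13 FPKM (0.08, adjusted p of 0.58), and CRB3 stood at 3.12 ± 0.147 and 2.74 ± 0.48 FPKM (-0.16, adjusted p of 0.619).

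Among 14 tested mesenchymal targets, 5 were called, all higher, with a median of 0.49. VIM, the intermediate filament of mesenchymal cells, was at 102, 87.1 and 102 FPKM in Control and at 231, 187 and 226 FPKM with OX-LDL, with a log2 fold change of 1.17 (SE 0.11, adjusted edgeR p of 0.00211). The matrix protein SPARC rose from 122 ± 9.82 to 174 ± 10.8 FPKM (0.54), and the collagen cross-linking enzyme LOX from 6.38 ± 0.316 to 12.1 ± 2.48 FPKM (0.96). CDH2, or N-cadherin, rose from 37.7 ± 0.188 to 45.1 ± 2.89 FPKM (0.29), a call lost in each fit that left out a library, and TAGLN rose by 0.44. FN1, the most abundant of those named, went the other way without being called, at 857 ± 14.5 and 734 ± 19.1 FPKM (-0.19, adjusted p of 0.0509). Once OX-LDL replicate 1 or 3, or Control replicate 1 or 2, was dropped, 3 genes of the list were called.

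**Figure D4:**
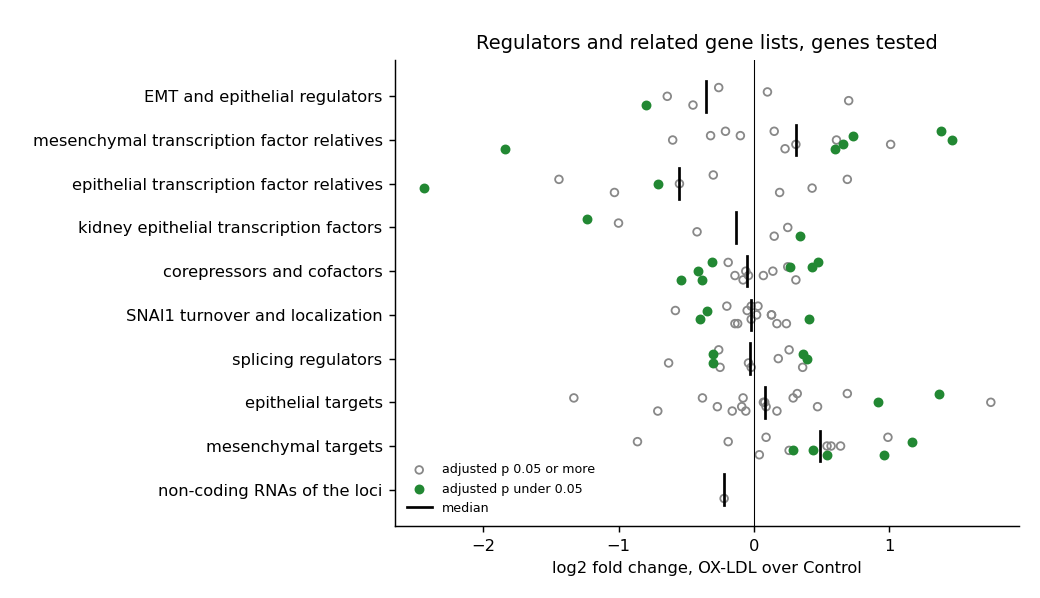
Log2 fold change of OX-LDL over Control for each tested gene of the regulators and of 9 related lists (open circles, not called; green, adjusted edgeR p under 0.05), with the median of each list as a black bar. KLF4 was the lowest called gene at -2.44 and ID1 the highest at 1.46, the mesenchymal targets had a median of 0.49 and the epithelial transcription factor relatives one of -0.55.

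Markers of the labelled cell type and of other cells were read beside these values. The proximal tubule endocytic receptors were absent or nearly so, with LRP2 at 0 counts in all libraries and CUBN at 0.0381 FPKM or less, while the summed FPKM of the 8 tubule markers was 22.6 to 30.3 in Control and 18.9 to 21.6 with OX-LDL, mostly from 2 gene entries named GGT1 between which the counts were split differently from library to library. The summed level of 6 fibroblast markers overlapped, at 9.6 to 11.8 and 8.5 to 13.4 FPKM, with DCN at 0 and nearly the whole sum from LUM (10.2 ± 1.1 and 11.4 ± 2.9 FPKM). That of 5 endothelial markers was 0.122 FPKM or less in every library. The sum of 5 leukocyte markers was higher with OX-LDL, at 9.16 to 14 FPKM against 3.11 to 7.74 FPKM. Nearly all of it was CD68, a lysosomal protein that is not limited to leukocytes. CD68 was not called (log2 fold change 1.08, adjusted edgeR p of 0.0858), and groups without overlap were found for 37.2% of all tested genes. PTPRC was at 0.0105 FPKM or less and MS4A1 at 0. The part of the tubule sum and of CD68 in the differences above was not tested.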

How the data were processed

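RNA of 3 Control and 3 OX-LDL HK-2 cultures was sequenced as stranded, paired libraries. The submitters' processing notes name cutadapt 1.9, HISAT2 2.0.4, StringTie 1.3.4d, edgeR and DESeq2, with GRCh38. The authors deposited 1 table with estimated counts per gene and FPKM for each library, in which 0 counts are listed as 0.0001 FPKM and were read as 0. The estimated counts were whole numbers with steps of about 4 per read pair and were used as deposited.

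Genes averaging 0.1 FPKM or more over the libraries were tested with edgeR 4.0.16 (TMM factors, quasi-likelihood, two-sided) in R 4.3.3, OX-LDL against Control, with Benjamini-Hochberg adjustment over 19510 genes. The script was tested on simulated data. Alternatives were DESeq2 1.42.0, RLE and upper quartile factors, no minimum or 1 FPKM, counts divided by 4, limma 3.58.1 on log2(FPKM + 0.1) and log2(FPKM + 1), a replicate block, and each library left out.

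The members and the lists were chosen with earlier results of these data known. Named were the members and their paralogs, at most 4 genes per list by smallest p, genes overlapping a member, and the 2 list genes nearest in pattern. Some genes that this rule names are not reported here. The detection limit was 12 counts.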

Additional observations from a re-analysis of the deposited data

How the results depend on the processing

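Directions changed less often than calls. The 1 member called became 3 with DESeq2, 0 with a minimum of 1 FPKM, where ESRP1 and SNAI2 were not tested, 0 with the replicate block, and 0 to 1 when a library was left out. The 2991 called genes became 4430 with DESeq2, 1636 with the replicate block and 1161 to 2943 when a library was left out, and the 31 list genes became 44, 16 and 8 to 26 in the same fits. Same-numbered libraries of the groups did not deviate together (correlations of -0.109, -0.0343 and -0.00154 over 12259 genes), so the numbers were not taken as pairs, and under the replicate block ESRP1 had an adjusted edgeR p of 0.0677. For 41 genes refitted one by one, 478 of 605 alternative values kept direction and call, 108 lost the call, 15 gained it and 4 changed sign. All 4 were ESRP2, at 0.04 without Control replicate 1, 0.13 without Control replicate 3, 0.01 without OX-LDL replicate 1 and 0.05 without OX-LDL replicate 3, and the lowest value was -0.27 without Control replicate 2. The causes were not tested. TWIST2, PRRX1, GRHL2 and OVOL1 stayed at or under the detection limit of 12 counts.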

Other observations

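The Gene Ontology terms in the table offered another view of the transition, chosen after values were seen. Of 37 genes under epithelial to mesenchymal transition, which include SNAI1 and SNAI2, 29 were tested and 10 called (34.5%), 5 in each direction, beside 15.3% of all tested genes, and the median log2 fold change was 0.13. The higher genes were CTNNB1, the catenin of Wnt signaling (15.3 ± 0.442 to 22.4 ± 0.244 FPKM, SD, n = 3 each), the receptor FGFR2 (4.72 ± 1.05 to 12.2 ± 2.17 FPKM), HMGA2, RBPJ and FAM83D. The lower genes were HIF1A, the hypoxia factor (333 ± 58.1 to 185 ± 11.5 FPKM), the ligand BMP2 (3.49 ± 1.07 to 1.25 ± 0.246 FPKM), LOXL2, SOX9 and GSK3B. The calls numbered 7, 4 and 10 without Control replicates 1, 2 and 3. They numbered 4, 10 and 3 without OX-LDL replicates 1, 2 and 3.

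Of 46 genes under its positive regulation, which include SNAI1 and TWIST1, 37 were tested and 11 called (29.7%), 7 higher and 4 lower. TGFBR2, a receptor for TGF-beta, rose from 16.5 ± 0.689 to 24.6 ± 3.5 FPKM, and BAMBI, a decoy receptor that dampens TGF-beta signals, fell from 18.9 ± 1.86 to 8.74 ± 0.131 FPKM (log2 fold change -1.08, adjusted edgeR p of 0.0021). The Hippo pathway coactivator WWTR1 rose from 39.9 ± 0.588 to 56.2 ± 0.915 FPKM, and IL6 from 3.33 ± 0.113 to 5.44 ± 0.282 FPKM. CTNNB1, GCNT2, DAB2 and FOXC1 were also higher. BMP2, LOXL2 and TGFB1I1 were also lower, with TGFB1I1 falling from 11.8 ± 0.674 to 8.8 ± 0.566 FPKM. The number called was 8, 5 and 9 without Control replicates 1, 2 and 3. It was 6, 10 and 5 without OX-LDL replicates 1, 2 and 3, and 6 under the replicate block. Of 29 genes under negative regulation, which include no member, 17 were tested and 2 called (11.8%), PBLD lower and USF3 higher. That count was 5 with DESeq2, which called 26.4% of all genes given an adjusted p. It was 0 under the replicate block, and 0 to 3 when a library was left out. The fits without Control replicate 1, Control replicate 3 or OX-LDL replicate 3 gave 0.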
